A study of Mus musculus with 14 samples.

Results

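The 10 chemokine genes Ccl2, Ccl5, Ccl7, Ccl8, Ccl9, Cxcl1, Cxcl9, Cxcl10, Cxcl12 and Cxcl14 were followed in mouse hind limb skeletal muscle, chosen by name from the 49585 genes measured. Muscle of wild-type mice (WT) and of mice knocked out for Myf6 (KO) was sampled without and after injury and sequenced as 3 RNA libraries per group, 4 groups in all. Myf6 (MRF4) belongs to the myogenic regulatory family of transcription factors. The title of the series places it in the secretion of myokines, the signalling proteins released by muscle, and in upkeep of the muscle stem cell pool. The labels give neither the kind of injury nor the time after it, and no age, sex, strain or knockout allele was given in the sources used here. A further pair of libraries, 1 ChIP-seq library with a Flag antibody and 1 control, came from primary myotubes grown from satellite cells, the stem cells of adult muscle.

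Chemokines are small secreted proteins that guide the movement of cells by binding receptors that couple to G proteins. The CC and CXC families are named for the spacing of their first cysteines. In muscle, CC ligands made by macrophages, endothelium, stromal cells and fibres draw in monocytes after damage, CXC ligands such as Cxcl1 draw in neutrophils, and Cxcl12 is made steadily by stromal cells and is sensed by Cxcr4. Levels are given in RPM, the reads of a gene scaled to a fixed total per library and not to transcript length, so that levels of different genes are not compared. In bulk muscle, fewer cells of a type and less RNA per cell cannot be told apart.

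The libraries held 1880087 to 49392472 reads, the lowest being WT uninjured replicate 2, and 3 reads, taken as the floor of detection, corresponded to 0.0607 to 1.60 RPM. Reads on mitochondrial genes made up 13.8 to 22.3% of the WT uninjured and 3.63 to 15.3% of the KO uninjured libraries. KO injured replicate 2 stood apart from the other KO injured libraries, with 23.2% of its reads on mitochondrial genes, and results that rest on it are given with and without it. KO uninjured replicate 2 also differed from its group, with 15.3% of reads on mitochondrial genes against 6.76 and 3.63%. It had 14065 genes detected against 18548 and 20816. Markers of muscle fibres, the labelled tissue, were high in all libraries and took 16.4 to 17.2% of the reads in WT uninjured, 21.1 to 23.5% in KO uninjured, 17.0 to 21.2% in WT injured and 14.7 to 21.0% in KO injured libraries, without overlap between the uninjured genotypes. Myf6, the targeted gene, was at 25.0 to 121 RPM in the 6 WT and 1.86 to 3.46 RPM in the 6 KO libraries, and fell in both states (log2 change −3.90, adjusted p = 0.0215 uninjured, and −4.22, adjusted p = 0.00697 injured, limma). Its change was negative under all 18 alternatives of each state and passed in 14 of them uninjured and 11 injured. Nothing in the labels says that the libraries of a group came from separate animals, so that p-values measure only the spread between these samples.

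The genes lie in a few clusters. On the GRCm38.p6 assembly, Ccl2 (chr11:82035577-82037452), Ccl7 (chr11:82045712-82047525) and Ccl8 (chr11:82115185-82116799) form one group of CC ligands, and Ccl5 (chr11:83525778-83530518) and Ccl9 (chr11:83572917-83578636) lie further along the chromosome. Cxcl1 (chr5:90891245-90893121), Cxcl9 (chr5:92321331-92328079) and Cxcl10 (chr5:92346638-92348889) share chromosome 5, while Cxcl12 (chr6:117168535-117181368) and Cxcl14 (chr13:56288643-56296811) each stand alone. The 250 bases before the RefSeq start site are shown for Ccl8 and Ccl9, which with Cxcl14 had the lowest p-values between genotypes in uninjured muscle, because myogenic factors bind E-boxes. Capitals mark each match to the E-box CANNTG, which reads the same on both strands. Sequences are from RefSeq, GRCm38.p6, 5′ to 3′ on the strand of the gene: chr11:82114935-82115184 (plus strand) and chr11:83578637-83578886 (minus strand). The window of Cxcl14 (chr13:56296552-56296801, minus strand) is not printed, since the start site of its table entry, 56296551, lies inside the gene span, and the window therefore lies within the annotated gene.

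Ccl8: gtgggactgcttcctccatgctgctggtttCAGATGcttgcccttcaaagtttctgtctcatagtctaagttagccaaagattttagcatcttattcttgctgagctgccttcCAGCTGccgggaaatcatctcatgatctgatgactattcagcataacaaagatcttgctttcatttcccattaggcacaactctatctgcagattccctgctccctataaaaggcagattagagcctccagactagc
Ccl9: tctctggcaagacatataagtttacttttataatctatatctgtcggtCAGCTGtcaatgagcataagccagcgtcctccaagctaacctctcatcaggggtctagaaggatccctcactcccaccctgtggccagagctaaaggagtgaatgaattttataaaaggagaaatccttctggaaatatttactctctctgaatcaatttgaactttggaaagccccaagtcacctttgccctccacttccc

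Promoters were matched for 7 of the 10 genes; those of Ccl2, Ccl5 and Ccl7 were not used here. The motif CANNTG stood in 5 of the 7, in Ccl8 (CAGATG and CAGCTG), Ccl9 (CAGCTG), Cxcl1, Cxcl9 and Cxcl10, against 66.2% of 32851 RefSeq promoters of the same length. CAGCTG, a form of that motif, occurred in Ccl8, Ccl9 and Cxcl9 and in 13% of the promoters. The windows of Cxcl12 and Cxcl14 held neither.

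Myf6 peaks from the myotubes were counted around the start sites. Of the 7 genes with a RefSeq start, 1 had a peak summit within 50 kb of it, against 39.1% of 17492 protein-coding genes. That gene was Cxcl14, whose nearest peak (chr13:56262467-56262609, 7.36-fold enrichment by the authors' caller) had its summit 34.0 kb downstream of the start. Cxcl9 fell just outside the window, with its nearest summit 50.01 kb from the start, in a peak within Naaa that is also the nearest to Cxcl10. None of the 7 had a summit within 10 kb of its start, where 12.6% of genes had one, and 4 of the 7 had one within 100 kb, where 56.1% of genes did. Measured from the gene itself, the nearest summit was 666 kb from Ccl8, 435 kb from Ccl9 and 293 kb from Cxcl12. The peak list comes from 1 ChIP library and has no replicate check.

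**Figure D1:**
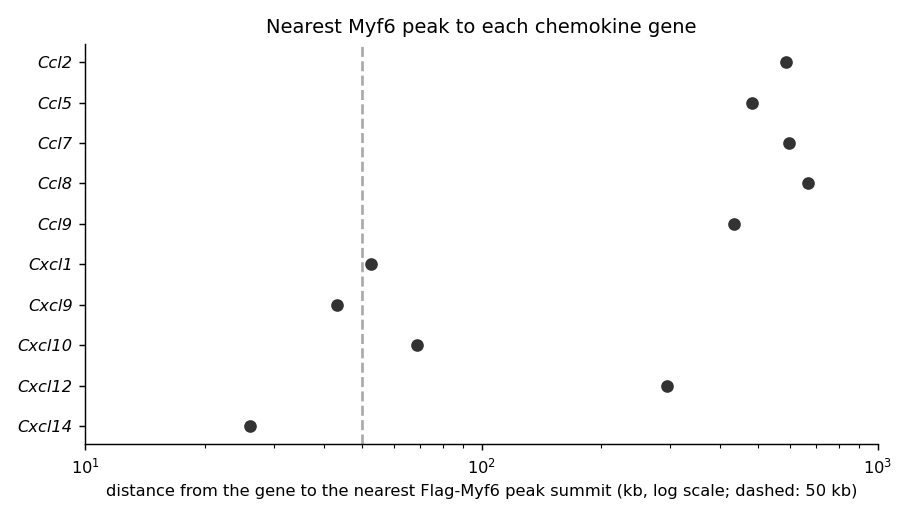
Distance in kb, on a log scale, from each of the 10 chemokine genes to the summit of the nearest Flag-Myf6 peak in myotubes (points), with 50 kb as a dashed line. Only Cxcl14 (26.1 kb) and Cxcl9 (43.3 kb) lie left of the line, and the 5 CC ligands lie at 435 kb or more.

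Of the 10 genes, 4 were at 1 RPM or more in all 12 libraries: Ccl9, Cxcl9, Cxcl12 and Cxcl14. Ccl8 reached 1 RPM in 6 libraries, Ccl2 and Ccl5 in 4, and Ccl7, Cxcl1 and Cxcl10 in 1. Genes entered the test between genotypes when 3 or more of the 6 libraries reached 1 RPM, which kept Ccl8, Ccl9, Cxcl9, Cxcl12 and Cxcl14 in each state. Changes are differences in log2(RPM + 1), which understates the change of genes at low levels.

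**Figure D2:**
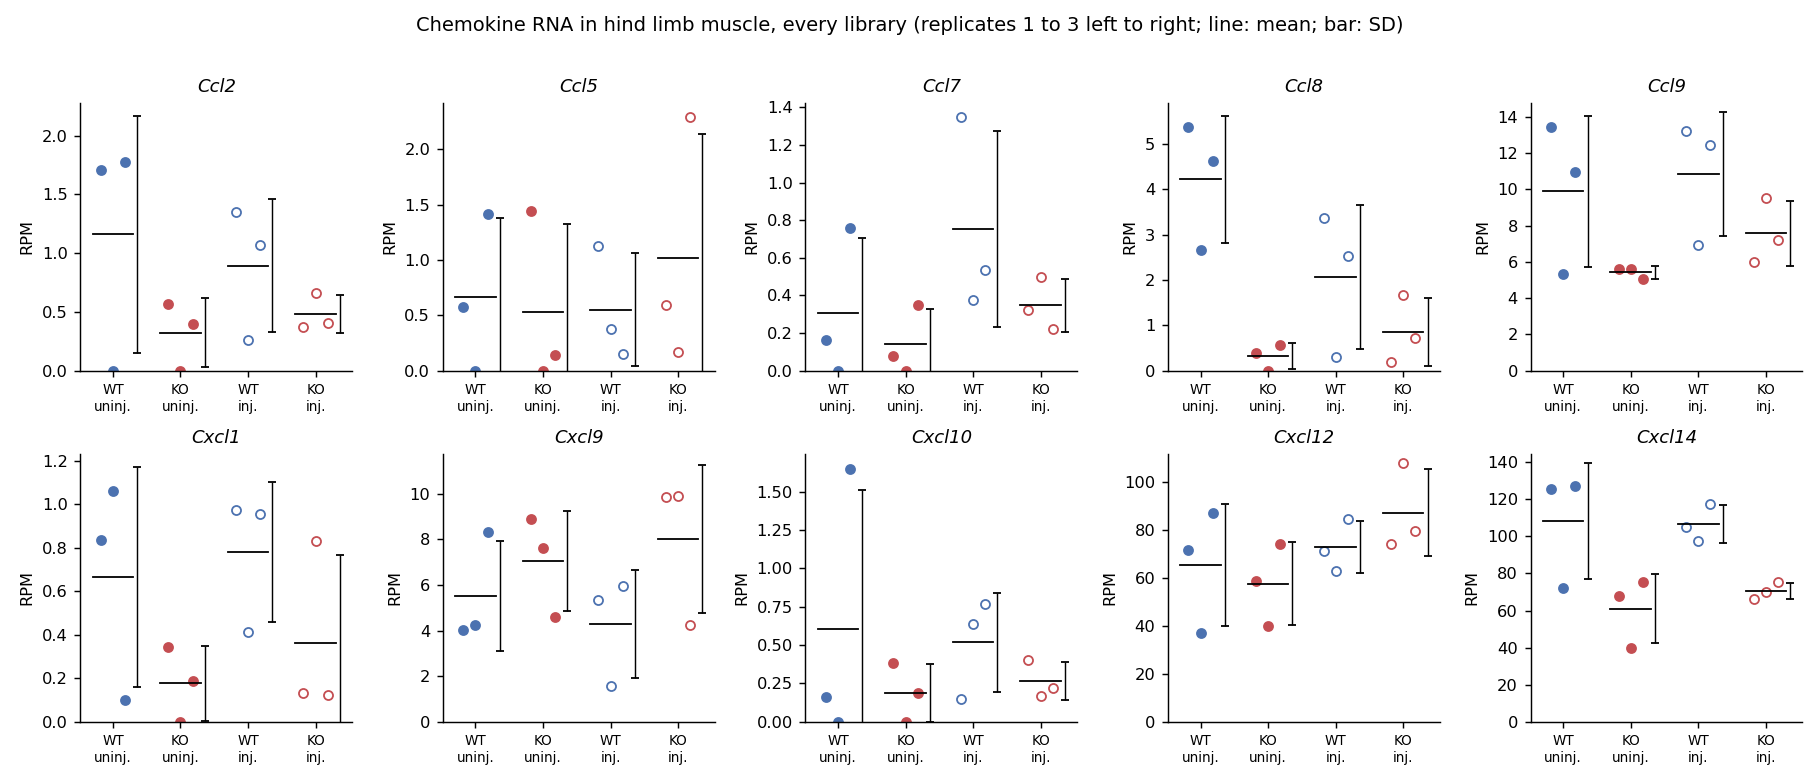
Level in RPM of each chemokine gene in every library (points) with the group mean and SD, for WT and KO muscle, uninjured and injured, each panel on its own axis. All 3 KO uninjured libraries lie below all 3 WT uninjured libraries for Ccl8, and all 3 KO injured below all 3 WT injured libraries for Cxcl14.

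In uninjured muscle Ccl8 and Cxcl14 had lower levels in KO than in WT libraries, and neither difference passed the adjusted threshold of 0.05 in limma. Ccl8, also called MCP-2, is made by tissue macrophages. It was at 5.37, 2.66 and 4.61 RPM in the WT libraries (167, 5 and 140 reads) and at 0.380, 0 and 0.561 RPM in the KO libraries (10, 0 and 24 reads). Every WT library was higher than every KO library, and the WT mean (4.22 ± 1.40, SD, n = 3) was 13.4 times the KO mean (0.314 ± 0.286). The log2 change was −1.97 (SE 0.40), with an adjusted p of 0.0774. The call turned on the method: over 14 alternatives the change ranged from −3.73 to −1.79 and the adjusted p from 0.000861 to 0.303, and 4 of the 14 passed, among them DESeq2 with 0.000861. In the authors' deposited table, Ccl8 was the one member with a q-value under 0.05, with a log2 ratio of WT over KO of 3.57 (SE 0.799) and q = 0.00341, where 0.668% of the genes of that table had such a q-value. Ccl8 entered the test only through its 3 WT libraries, and with any one of them left out it was not tested.

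Cxcl14, a CXC ligand made steadily by stromal and epithelial cells, was at 126, 72.3 and 127 RPM in uninjured WT muscle, against 67.7, 40.0 and 75.3 RPM in uninjured KO muscle. The ranges touch, since the highest KO library exceeded WT replicate 2, the library of lowest depth. Its log2 change was −0.82 (SE 0.34, adjusted p = 0.318). Ccl9, also called MIP-1 gamma, a ligand of Ccr1 made by myeloid cells, measured 13.4, 5.32 and 10.9 RPM in WT against 5.63, 5.59 and 5.03 RPM in KO libraries. Here again WT replicate 2 sat among the KO values, and the change of −0.68 (SE 0.39) had an adjusted p of 0.471.

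The 2 remaining tested genes differed by less than the spread between libraries. Cxcl9, which is induced by interferon gamma and draws in T cells through Cxcr3, was at 4.02, 4.26 and 8.30 RPM in WT and 8.90, 7.64 and 4.61 RPM in KO (log2 change 0.32, SE 0.40, adjusted p = 0.767). Cxcl12, the ligand of Cxcr4 and Ackr3, was at 71.8, 37.2 and 87.1 RPM in WT and 58.7, 39.9 and 74.3 RPM in KO. Its change of −0.14 (SE 0.38, adjusted p = 0.904) changed sign under other scalings, with 0.12 after upper quartile and 0.10 after TMM scaling.

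In all, 0 of the 5 tested genes passed in uninjured muscle, against 0.281% of the 12460 genes tested. At an unadjusted p under 0.05 there were 2, Ccl8 and Cxcl14, where the share over all genes was 14.2%. DESeq2 called 1 member and 663 of all 12460 genes, and edgeR 0 members and 55 genes. Ccl8 was the member whose KO libraries all lay below the WT libraries, as they did for 15.5% of all genes tested; no tested member had all KO libraries above the WT libraries, as 6.2% of genes did. The median change was −0.68 over the 5 tested members and −0.18 over all genes, and the latter moved to 0.04 with upper quartile scaling. Without KO uninjured replicate 2 the median over all genes was 0.003, and without KO uninjured replicate 3 it was −0.33. With replicate 2 left out, 2062 of 12277 genes and 1 of 5 members had an unadjusted p under 0.05 (limma). After adjustment 32 genes and 0 members passed.

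The low genes gave few reads. Ccl2, the main monocyte attractant acting through Ccr2, was at 1.71, 0 and 1.78 RPM in WT uninjured and 0.571, 0 and 0.397 RPM in KO uninjured libraries. Ccl7, a second Ccr2 ligand, was at 0.161, 0 and 0.758 RPM in WT and 0.0761, 0 and 0.351 RPM in KO. Ccl5, which attracts T cells and monocytes, was at 0.579, 0 and 1.42 RPM in WT and 1.45, 0 and 0.140 RPM in KO. All 3 were at 0 in replicate 2 of both genotypes, where 3 reads are worth 1.60 RPM in WT and 0.236 RPM in KO. Cxcl1, a neutrophil attractant acting through Cxcr2, was at 0.837, 1.06 and 0.0988 RPM in WT and 0.342, 0 and 0.187 RPM in KO. Cxcl10, like Cxcl9 a Cxcr3 ligand induced by interferon, was at 0.161, 0 and 1.65 RPM in WT and 0.380, 0 and 0.187 RPM in KO. The groups overlapped for each of the 5, and without the level filter their changes ran from −0.59 for Ccl2 to −0.15 for Ccl5, with unadjusted p between 0.125 and 0.749. Each of the 5 had at most 54 reads in any uninjured library.

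**Figure D3:**
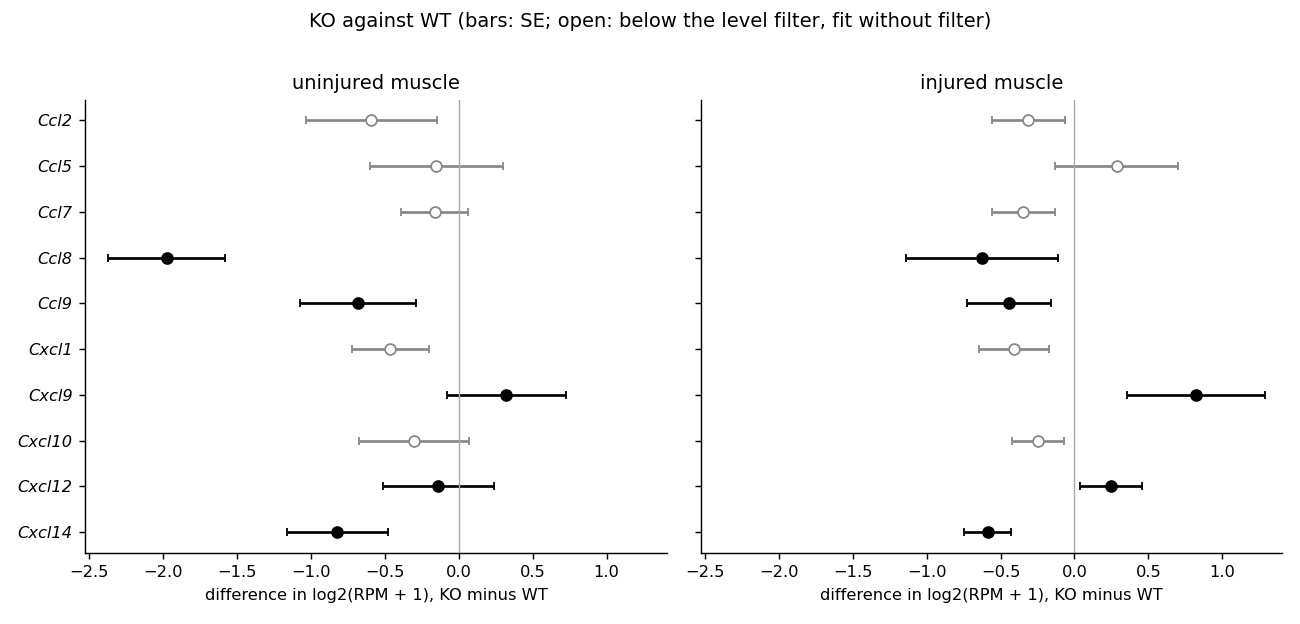
KO minus WT difference in log2(RPM + 1) with its SE for each chemokine gene in uninjured and injured muscle, with open points for genes below the level filter. Ccl8 lies lowest in uninjured muscle at −1.97, and Cxcl14 lies left of 0 in both states, at −0.82 and −0.59.

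In injured muscle, Cxcl14 was again lower in KO libraries and Ccl8 was no longer separated. Cxcl14 was at 105, 97.7 and 118 RPM in WT (107 ± 10.1, SD, n = 3) and at 66.4, 70.2 and 75.3 RPM in KO (70.6 ± 4.50). Every WT library was above every KO library, and the WT mean was 1.51 times the KO mean. The log2 change was −0.59 (SE 0.16), with an adjusted p of 0.298 in limma. Across 18 alternatives the change stayed between −0.65 and −0.52 while the adjusted p ran from 0.00315 to 0.980, passing with DESeq2 (0.00315) and without KO injured replicate 2 (0.0328). Without that library 2343 of 12312 genes passed, against 34 of 12625 with it.

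Ccl8 was at 3.38, 0.2995 and 2.53 RPM in WT injured and 0.187, 1.66 and 0.729 RPM in KO injured libraries. WT replicate 2 lay within the KO range, and KO replicate 2, the library that stood apart, was the highest of the KO group. The change was −0.63 (SE 0.52, adjusted p = 0.716), and without KO injured replicate 2 the gene missed the filter and was not tested. Ccl9 was at 13.2, 6.93 and 12.4 RPM in WT and 5.996, 9.52 and 7.19 RPM in KO (change −0.44, adjusted p = 0.639, and −0.60 without KO replicate 2). Cxcl9 was at 5.33, 1.57 and 5.93 RPM in WT and 9.85, 9.90 and 4.25 RPM in KO, a change of 0.82 (SE 0.46, adjusted p = 0.587, and 0.64 without KO replicate 2). Cxcl12 was at 71.1, 63.0 and 84.5 RPM in WT and 74.0, 108 and 79.8 RPM in KO (change 0.25, adjusted p = 0.725, and 0.086 without KO replicate 2).

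Of these 5 genes 0 passed, against 0.269% of 12625 genes. At an unadjusted p under 0.05 there was 1, Cxcl14, where the share over all genes was 10.3%. DESeq2 called 1 member and 427 of all 12625 genes, and edgeR 0 members and 33 genes. KO libraries all lay below WT libraries for Cxcl14 and for 8.63% of all genes, and above them for no tested member and 8.29% of all genes. Of the members, 0 had a q-value under 0.05 in the authors' deposited table, against 0.454% of its genes. The median change was −0.44 over the tested members and 0.01 over all genes.

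Among the low genes in injured muscle, Ccl2 was at 1.35, 0.262 and 1.07 RPM in WT and 0.375, 0.664 and 0.405 RPM in KO. Ccl7 was at 1.35, 0.374 and 0.536 RPM in WT and 0.321, 0.498 and 0.223 RPM in KO. Ccl5 had its highest value of all 12 libraries, 2.29 RPM, in KO injured replicate 3, where the other KO libraries were at 0.589 and 0.166 RPM and the WT libraries at 1.13, 0.374 and 0.153 RPM. Cxcl1 was at 0.975, 0.412 and 0.957 RPM in WT and 0.134, 0.830 and 0.121 RPM in KO, and Cxcl10 at 0.15, 0.636 and 0.765 RPM in WT and 0.401, 0.166 and 0.223 RPM in KO. The groups overlapped for each of these 5 genes, and their unadjusted p without the filter ran from 0.133 to 0.519.

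Injury itself moved no member past the threshold. With the 12 libraries fitted together, 7 members were tested and 0 passed in WT or in KO muscle, where 0% of 13337 genes passed in either; 0 members had an unadjusted p under 0.05, where 1.29% of genes did in WT and 3.51% in KO. DESeq2 and edgeR also called 0 members in either. In WT the lowest p belonged to Ccl8 (log2 change −0.90, SE 0.46, adjusted p = 1), whose injured and uninjured libraries overlapped. In KO it belonged to Cxcl12 (0.62, SE 0.32, adjusted p = 0.728), against a median of 0.29 over all genes. Without KO injured replicate 2 the Cxcl12 change was 0.45 (adjusted p = 0.665), and upper quartile scaling, which centres the genes differently, gave 0.24. Without KO uninjured replicate 2 the median over all genes in KO was 0.10, and 24 genes had an unadjusted p under 0.05. Without KO injured replicate 2 these were 0.27 and 227, against 0.29 and 468 with all libraries. Over 23 alternatives, both of these among them, the KO change ran from 0.24 to 0.82 for Cxcl12 and from 0.066 to 0.53 for Ccl9. Ccl9 was at 5.996 to 9.52 RPM in the KO injured and 5.03 to 5.63 RPM in the KO uninjured libraries, without overlap, as were 6.74% of all genes in either direction; its change was 0.40 (adjusted p = 0.733), and 0.24 without KO injured replicate 2. The genotype by injury interaction, the difference between the 2 responses, passed for 0 of 7 members and for 0% of all genes (unadjusted, 0 members and 1.56%; DESeq2 and edgeR, 0 members). Its lowest p among members was that of Ccl8 (1.35, SE 0.64, adjusted p = 0.9999, and 1.05 without KO injured replicate 2).

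**Figure D4:**
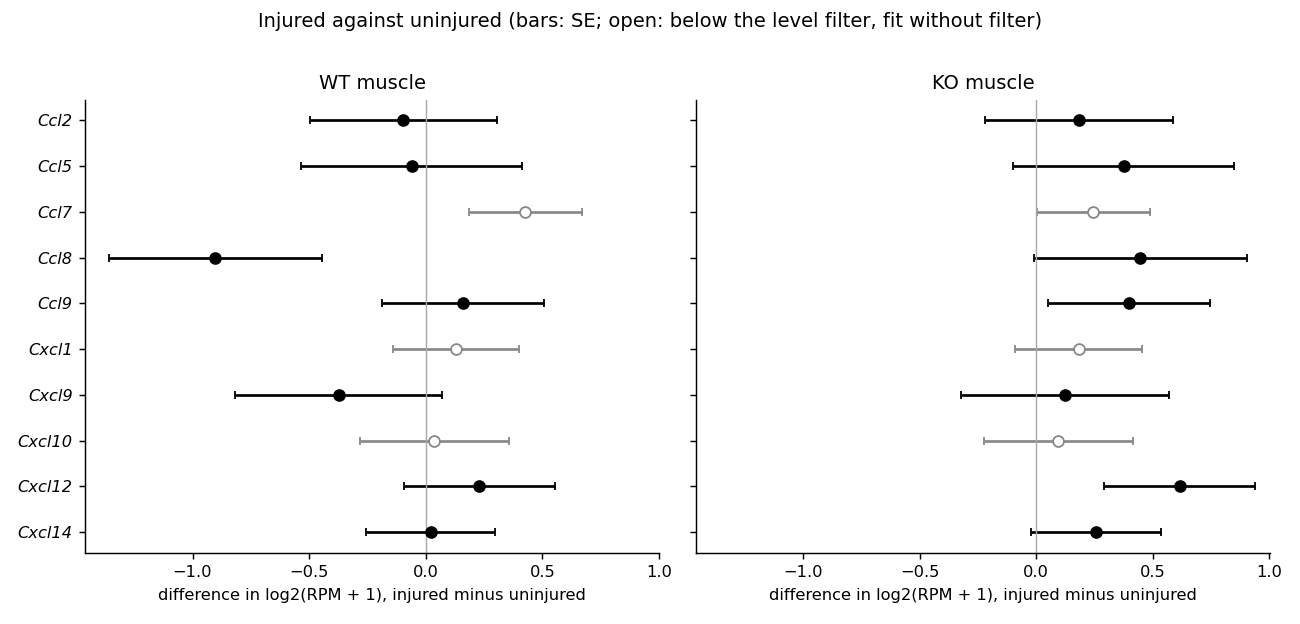
Injured minus uninjured difference in log2(RPM + 1) with its SE for each chemokine gene in WT and KO muscle, with open points for genes below the level filter. Ccl8 lies at −0.90 in WT and 0.45 in KO muscle, and neither value passed the test.

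Cxcr4, the Cxcl12 receptor, averaged 4.92 ± 1.51 RPM in WT uninjured, 2.78 ± 0.84 in KO uninjured, 3.49 ± 0.14 in WT injured and 4.89 ± 1.68 in KO injured muscle (SD, n = 3 each). Its KO libraries all lay below the WT libraries when uninjured, by a narrow margin (highest KO 3.27, lowest WT 3.36 RPM), as for 15.5% of all genes tested. When injured they all lay above, again narrowly (lowest KO 3.67, highest WT 3.60 RPM), as for 8.29% of genes. The interaction of Cxcr4 was 1.0 (SE 0.44, adjusted p = 0.9999, and 0.78 without KO injured replicate 2). Ackr3, which scavenges Cxcl12, was at 41.3, 22.3 and 32.7 RPM in WT and 10.6, 7.16 and 24.0 RPM in KO uninjured muscle (change −1.27, adjusted p = 0.244), the highest KO library exceeding the lowest WT library. Ackr3 was at 21.5, 35.5 and 24.2 RPM in the KO injured libraries (change with injury 1.04, adjusted p = 0.728, and 0.83 without KO injured replicate 2). Over 23 alternatives, leaving out KO uninjured replicate 2 among them, that change ran from 0.69 to 1.49. Ccr2, the receptor of Ccl2 and Ccl7, averaged 3.87 ± 3.03 RPM in WT uninjured and 2.23 ± 1.30 RPM in KO uninjured muscle. Ccr1, a receptor of Ccl9, was at or below 1.88 RPM, and Cxcr3 was at or below 0.418 RPM and Cxcr2 at or below 0.161 RPM in every library. Of 23 receptor genes, 7 were tested in uninjured and 8 in injured muscle and 0 passed in each. At an unadjusted p under 0.05 there was 1 in each, both lower in KO, against 14.2% and 10.3% of all genes. DESeq2 called 0 receptors.

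Among 28 other chemokine ligands, 10 were tested in uninjured muscle and 0 passed. At an unadjusted p under 0.05, 5 were lower and 0 higher in KO, where 14.2% of all genes had such a p. DESeq2 called 1 ligand and 663 of all 12460 genes. Ccl6, a close relative of Ccl9, was at 16.8, 14.4 and 11.99 RPM in WT and 6.09, 3.07 and 6.22 RPM in KO, without overlap (change −1.37, adjusted p = 0.155). Ccl24, which attracts eosinophils, changed by −1.41 (adjusted p = 0.242), Pf4 (Cxcl4) by −1.03 (adjusted p = 0.318) and Ccl27a, whose near-identical gene copies may share its reads, by −0.95 (adjusted p = 0.285). In injured muscle 9 were tested and 0 passed, with 4 lower and 1 higher at an unadjusted p under 0.05, against 10.3% of all genes. DESeq2 called 1 ligand and 427 of all 12625 genes. Without KO injured replicate 2, 3 ligands passed, where 2343 of all 12312 genes did. With all libraries, Ccl27a had the lowest p in injured muscle (change −1.51, adjusted p = 0.0846, limma). Next came Ccl25 (0.94, adjusted p = 0.333), Ccl11 (−0.57, adjusted p = 0.404) and Pf4 (−0.74, adjusted p = 0.409). The median over the tested ligands was −0.94 uninjured and −0.25 injured, beside −0.18 and 0.01 over all genes.

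**Figure D5:**
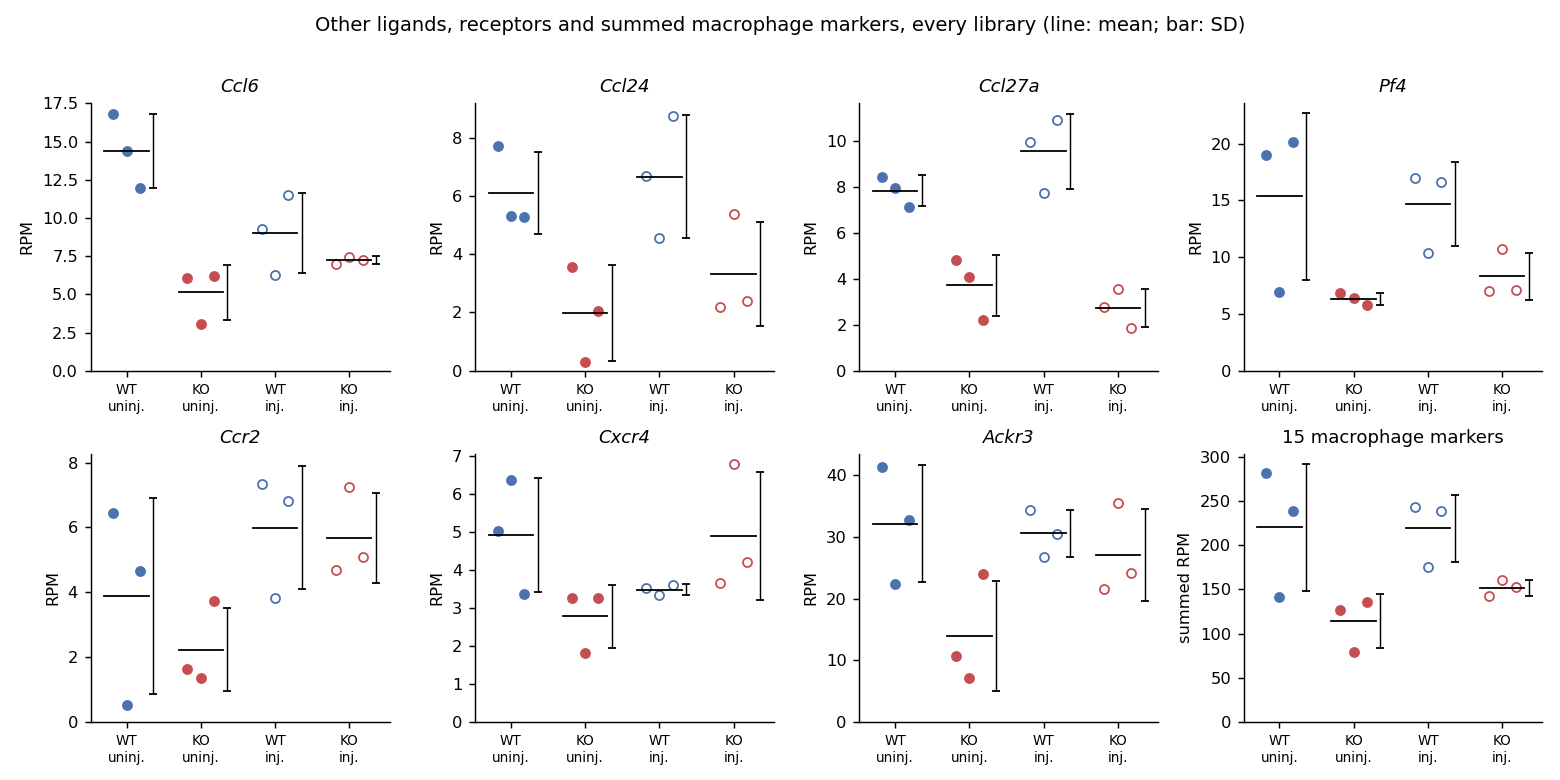
Level in RPM of Ccl6, Ccl24, Ccl27a, Pf4, Ccr2, Cxcr4 and Ackr3, and summed RPM of 15 macrophage markers, in every library (points). Group means and SD are shown for WT and KO muscle, uninjured and injured, each panel on its own axis. In uninjured muscle all KO libraries lie below all WT libraries for Ccl6, Ccl24, Ccl27a, Pf4 and Cxcr4, as for 15.5% of all genes tested. The uninjured groups overlap for Ccr2 and Ackr3.

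The pathways that induce several of these ligands gave no gene past the threshold. Of 22 interferon pathway genes, 19 were tested in each state and 0 passed. At an unadjusted p under 0.05, 3 were lower in KO without injury and 0 after it, against 14.2% and 10.3% of all genes. DESeq2 called 2 in uninjured muscle, where it called 663 of all 12460 genes. Ifit3, an interferon-induced gene, was at 5.95, 5.32 and 9.39 RPM in WT and 0.837, 1.34 and 0.865 RPM in KO uninjured libraries (change −1.94, adjusted p = 0.0694). Stat2, a transcription factor of the type I interferon response, was at 23.8, 19.1 and 25.4 RPM in WT and 8.10, 7.64 and 4.51 RPM in KO (change −1.64, adjusted p = 0.0820). In injured muscle Stat2 reached 31.5 RPM in KO replicate 2, against 4.71 and 5.32 RPM in the other KO libraries. Ifng, the gene of the interferon that induces Cxcl9, was at 0 in all 12 libraries, and Cxcl9 was at 1.57 RPM or more in each; Ifng was named after its values were seen. Of 22 inflammatory and NF-kB genes, 15 were tested in each state and 0 passed. At an unadjusted p under 0.05, 1 was lower without injury, and 1 higher and 1 lower after it, against the same shares of all genes. DESeq2 called 1 in uninjured muscle, where it called 663 of all 12460 genes. Without KO injured replicate 2, 3 genes of each of these lists passed in injured muscle, where 2343 of all 12312 genes tested passed.

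Macrophages are a known source of Ccl8 and Ccl9, and the summed level of their markers was lower in KO libraries in both states, without overlap. The summed level of 15 macrophage markers was 142 to 282 RPM in WT uninjured, 79.3 to 136 in KO uninjured, 176 to 243 in WT injured and 143 to 160 in KO injured libraries, with no marker at 0 throughout a group. All 13 tested markers had lower estimates in KO uninjured muscle, with a median change of −0.94 beside −0.18 over all genes, and 13 of 14 in injured muscle, with a median of −0.43 beside 0.01. An unadjusted p under 0.05 was found for 6 of the 13 and 4 of the 14, where 14.2% and 10.3% of all genes had one. After adjustment 0 passed in either state with limma. DESeq2 called 0 in uninjured and 1 in injured muscle, where it called 427 of all 12625 genes. Without KO injured replicate 2, 2 markers passed in injured muscle, where 2343 of all 12312 genes did. Without a block, edgeR called 0 genes of the ligand, receptor, interferon, inflammatory and macrophage lists in either state. The sum of 10 markers of fibro-adipogenic progenitors, the stromal cells of muscle, was 1404 to 2984 RPM in WT uninjured and 1144 to 2101 RPM in KO uninjured libraries. In injured muscle that sum was 2317 to 2455 RPM in WT and 1997 to 2297 RPM in KO libraries, without overlap. Gsn alone averaged 1359 RPM in WT and 1201 RPM in KO injured libraries. Taken singly, 2 of the 10 markers, Pdgfra and Gsn, had all KO injured below all WT injured libraries, as 8.63% of all genes tested did. Of these 10 markers, 7 had lower and 3 higher estimates in KO in each state, with medians of −0.60 uninjured and −0.17 injured. An unadjusted p under 0.05 (limma) was found for 2 uninjured and 1 injured, all lower in KO, and 0 passed. Markers of neutrophils summed to at most 13.97 RPM in any library, and those of T and NK cells to at most 16.4 RPM. Ly6g was at 0 in all but the KO injured group, where its mean of 0.00675 RPM lay below the lowest floor of detection, 0.0607 RPM. Adipocyte markers, 7 genes, had higher estimates in KO muscle for all 7 in both states (median 1.38 uninjured and 1.71 injured), and 0 passed. Their sum was 1220 to 2039 RPM in WT uninjured, 1724 to 3236 in KO uninjured, 387 to 1336 in WT injured and 1396 to 3032 in KO injured libraries. The sums did not overlap in the injured groups, where Fabp4 alone averaged 726 RPM in WT and 1408 RPM in KO. Taken singly, 0 of the 7 markers had all KO injured above all WT injured libraries, as 8.29% of all genes tested did. Endothelial markers summed to 823 RPM in KO injured replicate 2, where Cxcl12 was at its highest, and to 244 to 450 RPM in the other 11 libraries. The part of these cell types and of muscle fibres in the differences of Ccl8, Ccl9, Cxcl12 and Cxcl14 was not tested.

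The 4 genes present in every library followed different companions over the 12 libraries. Among 11257 genes with a mean of at least 2 RPM, the pattern of Ccl9 was most like those of Pf4 (Pearson r = 0.951), Atrx (0.925) and C1qa (0.918). Cxcl9 was most like Cd300lg (0.937), Btnl9 (0.932) and Fabp4 (0.923). Cxcl12 was most like Ldb2 (0.961), Lhfp (0.956) and Phlpp2 (0.956), and Cxcl14 like Pak1ip1 (0.971), Lyz2 (0.970) and Pnrc2 (0.958). Between members, r was 0.765 for Ccl9 with Cxcl14 and 0.002 for Ccl9 with Cxcl9. These values describe 12 libraries that share groups, depth and composition, and no p is given.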

How the data were processed

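RNA of 12 samples was extracted with Trizol and made into TruSeq RNA v2 libraries, per the labels' protocols. The authors deposited RPM values per gene and library, with their own log2 fold change, p-value and q-value. The submitters' processing notes name HISAT2 2.1.0, featureCounts, SAMtools, DESeq2, Bowtie 1.1.0, MACS2 2.1.0.20140616 and the builds mm10 and GRCm38.p5, with no role; strand use is not given in the sources used here. The deposited peak list gives fold enrichment, pileup signal and −log10 p and q, per the file headers. Whole reads were recovered from RPM, with 100% of values whole within 0.1 read. Floors cover counting error only.

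Tests were two-sided, limma 3.58.1 (lmFit, eBayes with trend) in R 4.3.3 on log2(RPM + 1), over genes with at least 1 RPM in 3 fitted libraries, with Benjamini-Hochberg adjustment over all genes at 0.05. KO and WT were compared on 6 libraries, injury and interaction on all 12. DESeq2 1.42.0 and edgeR 4.0.16 on recovered reads were alternatives. Gene positions and start sites are RefSeq, GRCm38.p6, whose chromosome coordinates the mm10 build shares.

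Named are all members, up to 4 genes of lowest p per list and comparison, any that passes, members' receptors and the 3 most correlated genes of members averaging 2 RPM or more. The members and lists were chosen with earlier results of these data known. The test scripts were tested on simulated data.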

Additional observations from a re-analysis of the deposited data

How the results depend on the processing

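The count of members that passed in uninjured muscle went from 0 to 1 with upper quartile scaling, scaling to reads outside mitochondrial genes, DESeq2 or the submitters' q-values (Ccl8 in each), and to 2 with the replicate block (Ccl8 and Cxcl14), while edgeR with the same block called 391 genes and 0 members. In injured muscle it went from 0 to 1 with DESeq2, and ranged from 0 to 1 with single libraries left out, 1 being without KO injured replicate 2 (Cxcl14 in both). No member passed in the injury comparisons or the interaction under any of 23 alternatives each. Over all genes, the alternatives called 1 to 752 in uninjured muscle (35 in the reported fit, 752 with the replicate block) and 0 to 2343 in injured muscle (34 in the reported fit). The count of members with a peak near the start went from 1 to 0 within 10 kb, to 4 of 7 within 100 kb (56.1% of all genes), to 0 at a fold enrichment of at least 10 (15.2% of all genes) and to 2 when measured from the gene span of all 10 members, the last chosen after seeing the data. The causes were not tested.

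Same-numbered KO and WT libraries correlated in their deviations from the group means at 0.04, 0.26 and 0.37 in uninjured muscle, each best with its own number. In injured muscle they did so at −0.45, −0.60 and −0.30, so the replicate numbers were not taken to pair KO with WT libraries. With the replicate block, Ccl8 had an adjusted p of 0.0149 and Cxcl14 of 0.0450 in uninjured muscle. Each library also carries a number with L or R, which may name the animal, and the labels do not say so. Injured and uninjured libraries of the same such number correlated in these deviations at 0.28, −0.23 and 0.02 in WT, 1 of 3 best with its own. In KO the values were 0.02, 0.50 and 0.63, 2 of 3 best with their own. The reported injury and interaction fits took the libraries as unpaired. With a block on that number, 0 members and 0 genes passed in them.

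Of 924 alternative values of 46 log2 changes, 844 kept their direction and side of the threshold, 11 no longer passed, 22 newly passed and 47 changed sign. The sign changes were among small values. For Cxcl12 between genotypes in uninjured muscle they were 0.12 (upper quartile), 0.10 (TMM), 0.00068 (DESeq2) and 0.035 (edgeR with block). For injury in WT, a pseudocount of 0.1 gave 0.29 for Ccl2 and 0.17 for Ccl5, DESeq2 gave −0.00068 for Ccl9, and Cxcl14 was at −0.063 (upper quartile), −0.039 (TMM), −0.084 (scaling to reads outside mitochondrial genes), −0.11 (DESeq2), −0.076 (edgeR) and −0.058 (edgeR with block). For injury in KO, upper quartile, TMM, DESeq2, edgeR and edgeR with block gave −0.22, −0.12, −0.18, −0.17 and −0.16 for Cxcl9, and −0.12, −0.015, −0.047, −0.038 and −0.035 for Cxcl14. Upper quartile scaling turned the interaction to −0.020 for Ccl9 and −0.053 for Cxcl14. With single libraries left out, the sign of some small changes also turned: Cxcl12 between genotypes without injury ran from −0.49 to 0.11. With injury in WT, Ccl2 ran from −0.58 to 0.17, Ccl5 from −0.38 to 0.25, Ccl9 from −0.19 to 0.43, Cxcl9 from −0.63 to 0.081, Cxcl12 from −0.13 to 0.48 and Cxcl14 from −0.24 to 0.16. With injury in KO, Ccl2 ran from −0.0056 to 0.32, Ccl5 from −0.048 to 0.77, Cxcl9 from −0.12 to 0.47 and Cxcl14 from −0.018 to 0.43. In the interaction, Ccl9 ran from −0.028 to 0.59 and Cxcl14 from −0.039 to 0.50.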
